A study of Mus musculus with 12 samples.

Results

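Cytosolic ribosomal protein genes encode the protein subunits of the ribosome that translates nuclear mRNA. They were taken here as the rows of the count table named Rpl or Rps with digits and at most 1 letter of a, l, x or y, plus Rplp0, Rplp1 and Rplp2, with 10 or more counts in at least 3 of 12 libraries. The name alone matched 81 of 49492 rows, and 79 passed the count limit. Of these, 45 belong to the large 60S subunit, 3 to the P stalk of that subunit and 31 to the small 40S subunit, and all 79 were among the 15542 genes tested. The lowest members were Rpl6l, with 63 to 118 counts per library, and Rps4l, with 156 to 278. The 2 rows just outside were Rpl10l and Rpl39l, both at 0 or 1 count in every library. GENCODE M21 annotates 77 members as protein coding, Rps4l as a transcribed processed pseudogene and Rpl6l as a processed pseudogene. Ribosomal proteins whose gene names differ, such as Rpsa and Fau, lie outside the name rule.

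Polyadenylated RNA from mouse left ventricle was sequenced in 12 libraries, 3 in each of 4 groups: wild type without TAC (WT_NS), wild type with TAC (WT_TAC), Alox5-deficient without TAC (Alox5ko_NS) and Alox5-deficient with TAC (Alox5ko_TAC). TAC, transverse aortic constriction, is surgery that raises the pressure against which the left ventricle pumps; the other arm is labelled NS, which the labels do not spell out. Alox5 encodes arachidonate 5-lipoxygenase, and the design text speaks of cardiac deficiency without naming a promoter, Cre line or allele. Age, sex, time after TAC and the mouse behind each library are not in the labels, so every p-value here reflects library-to-library spread, which may be technical.

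A ribosome holds 1 copy of nearly every ribosomal protein, so cells make these proteins in matched amounts. Their mRNAs carry a 5′ terminal oligopyrimidine (TOP) start, a C followed by a run of C and T (U in the RNA), through which the kinase mTOR sets how well they are translated. In this regulation the protein output can change while the mRNA level, the only quantity measured here, does not. Growth of heart muscle under load is known to involve making more ribosomes. Striated muscle also expresses Rpl3l, a paralog that can take the place of the ubiquitous Rpl3 next to the peptidyl transferase centre.

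The TOP start is shown for members with an annotated RefSeq start (GRCm38.p6), because it is the sequence feature that links the mRNAs of this group. Each window runs from 10 bases before the annotated start to 20 bases from it. Capitals mark the uninterrupted run of C and T that opens with C at the start itself; a window in lower case has no such run of at least 5 bases.
Rpl15 (chr14:18270967-18270996, minus strand): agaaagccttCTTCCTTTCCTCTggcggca
Rpl35 (chr2:39005112-39005141, minus strand): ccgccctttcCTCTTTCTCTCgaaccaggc
Rps10 (chr17:27635225-27635254, minus strand): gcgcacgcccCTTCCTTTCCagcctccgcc
Rps6 (chr4:86857348-86857377, minus strand): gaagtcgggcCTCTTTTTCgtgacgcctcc
Rplp2 (chr7:141447641-141447670, plus strand): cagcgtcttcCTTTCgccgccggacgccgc
Rpl3l (chr17:24727816-24727845, plus strand): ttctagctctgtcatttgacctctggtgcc
Starts were available for 57 of the 79 members. A C followed by at least 4 bases of C or T stood at the annotated start of 13 of these 57 genes (22.8%), against 3.01% of 27025 genes in the table. Counted by start, it was 13 of 69 (18.8%) against 823 of 32851 (2.51%). Only the transcribed strand at the exact annotated base was read, so a start placed 1 base away does not count. Both annotated starts of Rpl3l lacked the run, as did those of most members with a start.

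Alox5 itself was at 9.56 to 13.9 CPM in the 6 wild-type libraries and 0.934 to 1.46 CPM in the 6 Alox5ko libraries. CPM are counts scaled to library size with TMM factors, here and throughout, except for the summed CPM of marker lists. Those sums were scaled to library totals without TMM factors. Library totals ran from 20889431 to 27311196 counts. All 10 cardiomyocyte markers were detected, at a summed 160494 to 196613 CPM. Markers of other cells were present at lower sums, 779 to 1499 CPM for 10 fibroblast genes and 106 to 165 CPM for 8 macrophage genes. Of 5 neutrophil markers 1, Ly6g, was at 0 in every library, and the list summed to 1.45 to 8.35 CPM. In whole tissue, fewer cells of a type and less RNA per cell cannot be told apart.

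The members drew a narrow part of each library, between 0.791% and 0.970% of all counts. The share was 0.864%, 0.848% and 0.817% in WT_NS 1 to 3 and 0.875%, 0.874% and 0.820% in WT_TAC 1 to 3. It was 0.806%, 0.791% and 0.970% in Alox5ko_NS 1 to 3 and 0.925%, 0.813% and 0.851% in Alox5ko_TAC 1 to 3. All 4 groups overlapped, with means of 0.843% ± 0.0238 in WT_NS, 0.856% ± 0.0312 in WT_TAC, 0.856% ± 0.0991 in Alox5ko_NS and 0.863% ± 0.0565 in Alox5ko_TAC (SD, n = 3 each). The ratio of large-subunit to small-subunit counts stayed between 2.34 and 2.504, lowest in Alox5ko_NS 3. An exact 95% binomial interval of a library's share was at most 0.00799 percentage points wide, which covers counting error only. Rows named as pseudogenes of members, by a -ps ending, held 1.36% to 1.78% as many counts as the members. Copies under other names are not in this sum.

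**Figure D1:**
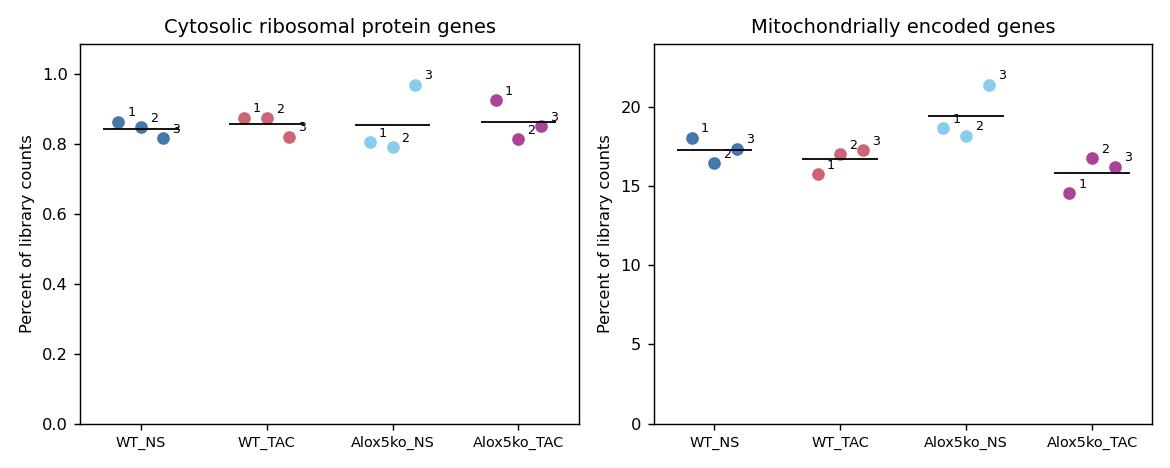
Percent of each library's counts in the 79 cytosolic ribosomal protein genes (left) and in mitochondrially encoded genes (right); points are libraries with their replicate number, and lines are group means. Alox5ko_NS 3 is the highest library in both panels, at 0.970% and 21.4%.

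Alox5ko_NS 3 stood apart and Alox5ko_TAC 1 leaned the same way. In Alox5ko_NS 3, 76 of the 79 members (96.2%) had their highest CPM of the group, while 38.4% of all tested genes did. In Alox5ko_TAC 1 this held for 63 members (79.7%) and 32.4% of tested genes, and in Alox5ko_TAC 2 for 1 member. Alox5ko_NS 3 also had the highest mitochondrial share of the 12 libraries, 21.4%, whereas Alox5ko_TAC 1 had the lowest, 14.6%. The summed cardiomyocyte markers of Alox5ko_NS 3 were the lowest of all, 160494 CPM against 182506 and 186642 CPM in Alox5ko_NS 1 and 2, and its 5 erythroid markers the highest, 347 CPM against 153 to 283 CPM elsewhere. The part of these shifts in the members' level was not tested.

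The members moved together from library to library. Each library's log2 CPM was taken as a deviation from its group mean, and each member was correlated with the mean of the other 78. The median r was 0.89 over 12 libraries, and 58 of 79 members exceeded 0.8, while the other 15463 tested genes had a median r of -0.02 with the members' mean and 2.55% of them exceeded 0.8. Without Alox5ko_NS 3 the members' median was 0.77, with 34 of 79 over 0.8 against 1.82% of other genes. These values describe the 12 libraries, which share their scaling factors across genes.

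**Figure D2:**
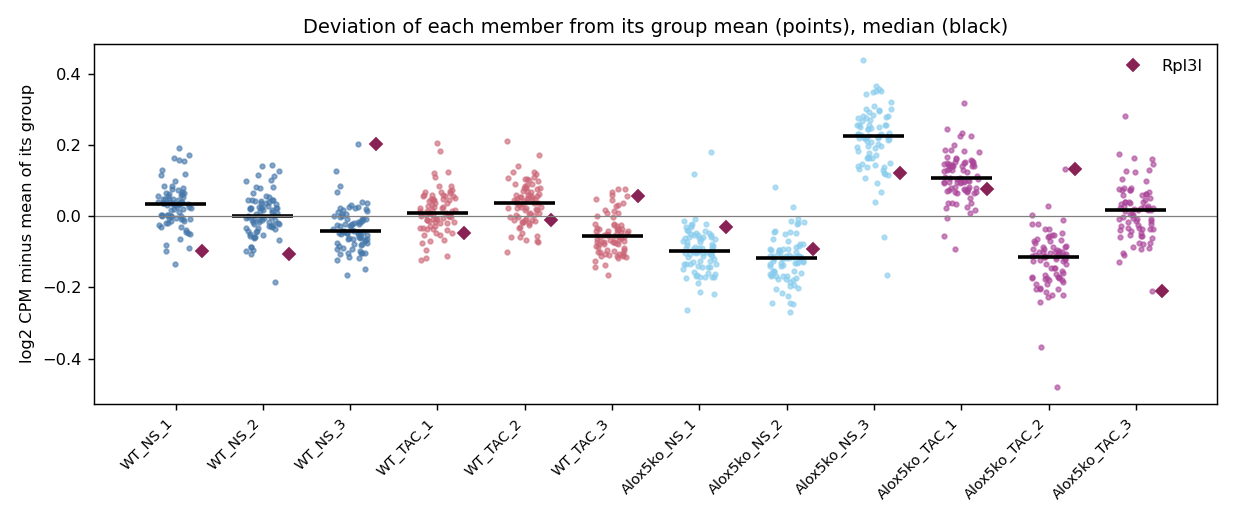
Deviation of each member's log2 CPM from the mean of its group, by library; points are the 79 genes, black lines medians and diamonds Rpl3l. Nearly the whole set lies above 0 in Alox5ko_NS 3 and Alox5ko_TAC 1 and below it in Alox5ko_NS 2 and Alox5ko_TAC 2, while Rpl3l departs from the set in several libraries.

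Rpl3l followed the other members least, with r = 0.10 over 12 libraries and -0.38 without Alox5ko_NS 3. Rps25, a small-subunit protein, had r = 0.19, and the 2 annotated pseudogenes had 0.24 (Rpl6l) and 0.49 (Rps4l). Without Alox5ko_NS 3 these 3 had r = 0.78, 0.90 and 0.75, close to the members' median of 0.77 or above it. Other members then followed the set little, with r = -0.09 for Rpl30, 0.01 for Rps21 and 0.14 for Rps14, so Rpl3l was not alone. The tightest member without Alox5ko_NS 3 was Rps6, the 40S protein phosphorylated by S6 kinases, with r = 0.98.

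Levels per length are given as the authors' deposited RPKM, read counts scaled to gene length and library size. They spanned 179-fold, from Rpl23a at 639 ± 42.8 to Rps15a at 3.58 ± 0.416 RPKM (SD over 12 libraries), around a median of 48.0 RPKM. Below Rpl23a, a 60S protein near the tunnel exit, came Rps24 at 362 ± 33.9, Rpl19 at 293 ± 19.99, Rps15 at 264 ± 20.5 and Rpl36 at 207 ± 15.4 RPKM. The lowest were Rpl39 at 8.11 ± 0.821, Rpl18 at 7.21 ± 0.572, Rpl35a at 6.76 ± 0.540, the pseudogene Rpl6l at 4.54 ± 0.671 and Rps15a. In the order of levels, 74 of 78 neighbouring pairs overlapped in their ranges over the 12 libraries. The genes share libraries, however, and compared within each library the upper gene of a pair was higher in all 12 for 13 of the 78 pairs, Rps24 over Rpl19 and Rpl19 over Rps15 among them. In the other 65 pairs the order differed between libraries. The breaks without overlap came just below Rpl23a, Rps15, Rpl34 and Rpl35a.

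**Figure D3:**
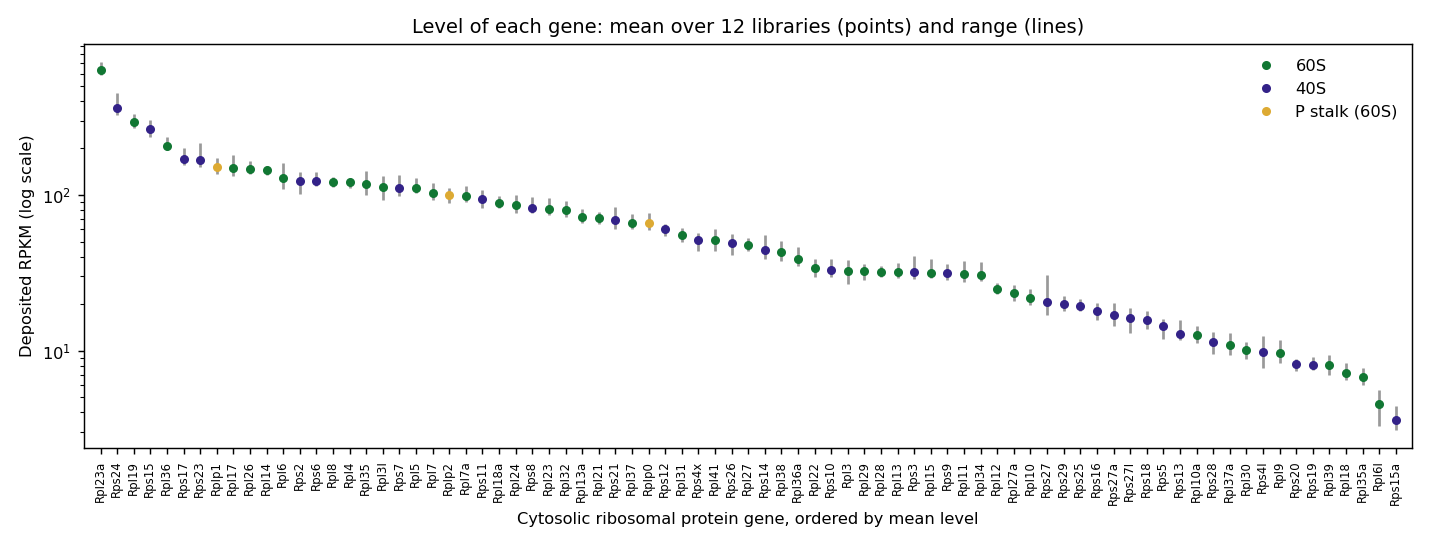
Deposited RPKM of the 79 members on a log axis, ordered by mean; points are means over 12 libraries, coloured by subunit, and lines the lowest to highest library. Rpl23a heads the order at 639 RPKM and Rps15a closes it at 3.58 RPKM, with large-subunit and small-subunit genes mixed throughout.

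A large part of this order depended on the length used. The deposited length exceeded that of the shortest principal transcript by a median of 2.28-fold, and by 9.80-fold for Rps15a, 6270 against 640 bases. Across the 79 members, the log2 of that length ratio had r = -0.56 with mean log2 RPKM. With counts per kilobase of the principal transcript, Rpl23a still led, but Rplp2 rose from rank 22 to rank 2, Rpl22 from 44 to 15 and Rps15a from 79 to 70, and Rps24 dropped to rank 18. The 2 scales had r = 0.84 across members, and on the second the span was 209-fold.

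Sequence shared with copies elsewhere in the genome limits what the counts can say about single members. Of all 150-base windows of the principal transcript, the length of 1 read, a median of 70.8% occurred in no other annotated gene. This share was under 50% for 24 members and 100% for 12. It was 2.04% for Rps27, 9.08% for Rpl10 and 29.0% for Rpl3, but 100% for Rpl3l, Rpl39, Rps27l, Rpl22 and Rps4l. The share had r = -0.03 with mean log2 RPKM across members. How reads with several matches were counted is not given in the sources used here, so the levels of members with a low share are uncertain.

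As counted, Rpl3l had the higher level of the pair of Rpl3 paralogs in every library. Of the windows of Rpl3, 29.0% occurred in no other gene, against 100% for Rpl3l. How reads with several matches were counted is not given, so Rpl3 may be undercounted and the order of the pair is uncertain. Rpl3l lies at chr17:24727820-24736143 on the plus strand and Rpl3 at chr15:80077791-80091868 on the minus strand (GRCm38, GENCODE M21). Their means were 113 ± 11.5 RPKM for Rpl3l and 32.3 ± 3.80 RPKM for Rpl3 (SD over 12 libraries). The size of the ratio depends on the length used, since the deposited length of Rpl3 is 3119 bases and its principal transcript 1351. The mean ratio was 3.54 ± 0.642 with deposited lengths and 1.83 ± 0.333 per kilobase of the principal transcripts (SD over 12 libraries), where it was 1.41 at its lowest. On the RPKM scale, the Rpl3l to Rpl3 ratio was 2.94, 3.42 and 4.45 in WT_NS 1 to 3 and 2.72, 2.89 and 3.54 in WT_TAC 1 to 3. It was 4.17, 4.39 and 3.96 in Alox5ko_NS 1 to 3 and 2.97, 4.08 and 2.95 in Alox5ko_TAC 1 to 3. The TAC libraries lay lower on average in both genotypes, and the groups overlapped in both.

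As group means the ratio was 3.61 ± 0.771 in WT_NS, 3.05 ± 0.431 in WT_TAC, 4.17 ± 0.218 in Alox5ko_NS and 3.33 ± 0.643 in Alox5ko_TAC (SD, n = 3). The log2 ratio was -0.28 in TAC minus NS within genotype, which gave p = 0.06 in an exact two-sided permutation test over 400 arrangements, where 0.005 is the smallest p possible. Within wild type the difference was -0.23 (exact permutation p = 0.4) and within Alox5ko it was -0.34 (exact permutation p = 0.2), and with 3 against 3 libraries neither test can go below 0.1. The pooled p moved to the other side of 0.05 in 3 of the 12 omissions of a single library. By exact permutation it was p = 0.04 with -0.35 without WT_NS 1 and p = 0.035 with -0.34 without WT_TAC 3. Without Alox5ko_TAC 2, exact permutation gave p = 0.03 with -0.36. In the other omissions the p stayed on the same side.

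**Figure D4:**
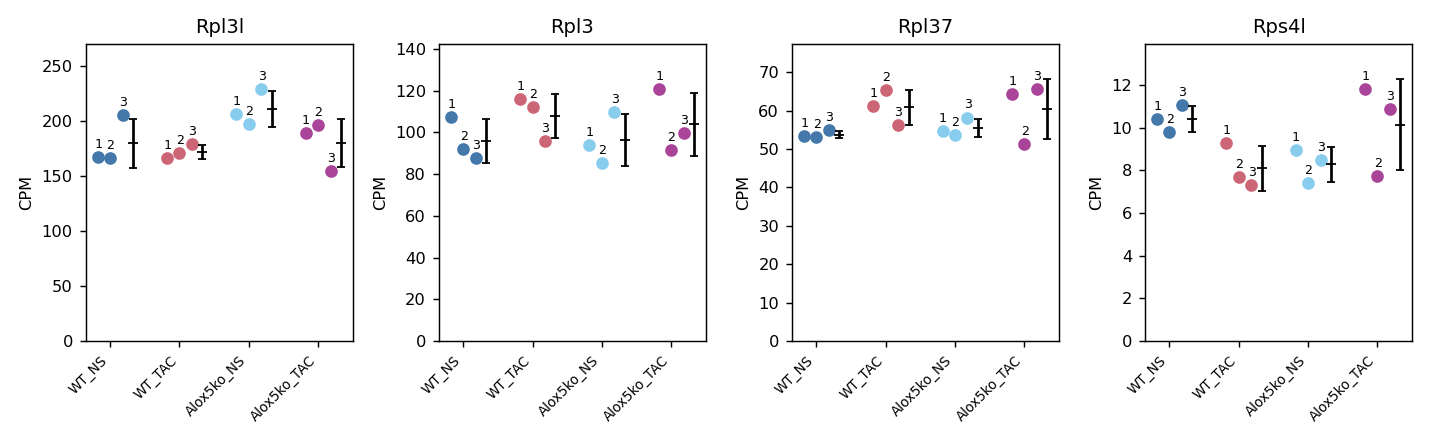
CPM of Rpl3l, Rpl3, Rpl37 and Rps4l by library, on axes from 0; points carry replicate numbers, and bars show mean ± SD (n = 3). Rpl3l in the 3 Alox5ko_TAC libraries lies below all Alox5ko_NS libraries, and Rps4l in the 3 WT_TAC libraries lies below all WT_NS libraries.

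The effect of TAC in wild type was the first comparison. None of the 79 members passed an adjusted p of 0.05 in edgeR's quasi-likelihood test, against 0.766% of all tested genes. DESeq2 and limma voom also called 0 members. At an unadjusted p under 0.05 there was 1 member, Rps4l, while 11.9% of all genes met that limit. The log2 fold changes ran from -0.36 to 0.19 with a median of 0.05, and 61 of 79 were positive, against a median of 0.00 and 50.9% positive over all genes. The median absolute change was 0.06 among members and 0.13 among all genes.

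Rps4l, annotated as a pseudogene of the 40S gene Rps4x, had 10.4, 9.81 and 11.04 CPM in the WT_NS libraries, while the WT_TAC libraries had 9.30, 7.68 and 7.33 CPM. Every WT_TAC library lay below every WT_NS library, at a log2 fold change of -0.36 ± 0.145 (SE) and an edgeR adjusted p of 0.300. Rpl23a had 497, 503 and 521 CPM in the WT_NS libraries, while the WT_TAC libraries had 587, 576 and 544 CPM, a log2 fold change of 0.17 ± 0.0835 (edgeR adjusted p = 0.453). Rpl37, a zinc-binding 60S protein, had 53.3, 53.1 and 54.9 CPM in the WT_NS libraries, while the WT_TAC libraries had 61.1, 65.3 and 56.2 CPM, 0.18 ± 0.0911 on the log2 scale (edgeR adjusted p = 0.464). The TAC and NS libraries of Rpl23a and Rpl37 did not overlap either. In all, 9 members were separated upward and 1 downward, 10 of 79, where 10.1% and 8.81% of all genes were separated in these directions and 18.9% in either.

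In Alox5ko hearts TAC also left all members below the limit. The edgeR test called 0 of 79, against 1.34% of all genes, and DESeq2 and limma voom called 0. At an unadjusted p under 0.05 there was 1, Rpl3l, against 14.5%. Fold changes ran from -0.29 to 0.29 with a median of -0.01, and 32 of 79 were positive. Leaving out Alox5ko_NS 3 turned the sign, with 75 positive and a median of 0.10, and leaving out Alox5ko_NS 2 gave 9 positive and a median of -0.07.

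Rpl3l had 206, 197 and 229 CPM in the Alox5ko_NS libraries, while the Alox5ko_TAC libraries had 189, 196 and 155 CPM. The groups did not overlap, though the nearest libraries were 197 and 196 CPM, and they gave a log2 fold change of -0.23 ± 0.0980 and an edgeR adjusted p of 0.284. It was the single member whose groups were separated, downward, where 9.02% of all genes were separated downward and 18% in either direction. Rps4l had 8.97, 7.39 and 8.50 CPM in the Alox5ko_NS libraries, while the Alox5ko_TAC libraries had 11.8, 7.72 and 10.9 CPM, a log2 fold change of 0.29 ± 0.144 (edgeR adjusted p = 0.362) with overlapping groups. Rps27, a zinc-binding 40S protein, had 22.1, 20.7 and 33.7 CPM in the Alox5ko_NS libraries, while the Alox5ko_TAC libraries had 24.2, 18.8 and 19.4 CPM. Its log2 fold change of -0.29 ± 0.172 (edgeR adjusted p = 0.483) was -0.04 at its smallest over the alternatives. Alox5ko_NS 3 was the high library.

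Without TAC, genotype gave the most one-sided picture, and 1 library carried it. The comparison of Alox5ko_NS with WT_NS called 0 of 79 members in edgeR, against 0.0386% of all genes, and 0 in DESeq2 and limma voom. At an unadjusted p under 0.05 there were 2, Rpl3l and Rps4l, against 6.36%. The median log2 fold change was 0.10, and 74 of 79 were positive against 50.4% of all genes. Without Alox5ko_NS 3, 31 of 79 were positive and the median was -0.01. The separated members were 2 upward and 1 downward, where 6.14% and 7.45% of all genes were separated in these directions and 13.6% in either.

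Rpl3l had 167, 166 and 206 CPM in WT_NS beside the Alox5ko_NS values given above. The log2 fold change was 0.23 ± 0.0980 (edgeR adjusted p = 0.727), and WT_NS 3 overlapped the Alox5ko_NS libraries. For Rps4l it was -0.33 ± 0.143 (edgeR adjusted p = 0.738), with all Alox5ko_NS libraries below all WT_NS libraries. Rps24, a 40S protein mutated in Diamond-Blackfan anaemia, had 294, 277 and 273 CPM in the WT_NS libraries, while the Alox5ko_NS libraries had 287, 287 and 401 CPM. Its log2 fold change of 0.21 ± 0.106 (edgeR adjusted p = 0.794) rested on Alox5ko_NS 3, and the lowest value over the alternatives was 0.03.

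Under TAC, Alox5ko and WT libraries were not separated for any member. The edgeR test called 0 of 79, against 0.109% of all genes, as did DESeq2 and limma voom, and 1 member, Rps4l, had an unadjusted p under 0.05, against 8.49%. No member had groups without overlap, where 12.3% of all genes did. The median was 0.03 with 59 of 79 positive, and 22 were positive, with a median of -0.03, without Alox5ko_TAC 1. Rps4l had a log2 fold change of 0.32 ± 0.146 (edgeR adjusted p = 0.566). Rps14, a 40S protein, differed by 0.17 ± 0.122 (edgeR adjusted p = 0.773) and Rpl32 by 0.12 ± 0.0953 (edgeR adjusted p = 0.789). Rpl32 lies 0.601 Mb from Alox5 on chromosome 6 (chr6:115805505-115808747), and Rps4l lies on the same chromosome 31.9 Mb away.

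The interaction, the TAC effect in Alox5ko minus that in wild type, had the largest single difference of the set. For Rps4l it was 0.65 ± 0.204 on the log2 scale, with an unadjusted p of 0.00464 and an edgeR adjusted p of 0.636. Over the alternatives it ran from 0.53 to 0.82, and the adjusted p from 0.130 to 0.9996. The test called 0 of 79 members and 0 of all genes (0%), and DESeq2 and limma voom called 0 members. At an unadjusted p under 0.05 Rps4l was the 1 member, against 5.38% of all genes. Of 79 members, 11 were positive, around a median of -0.06, and without Alox5ko_NS 3 there were 59, around 0.04. Rpl36a, whose principal transcript is 18.9% unique in windows, had -0.22 ± 0.140 (edgeR adjusted p = 0.977), and Rps27a, made as a fusion with ubiquitin, had -0.21 ± 0.160 (edgeR adjusted p = 0.9997).

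Averaged over genotypes, with more libraries on each side, the TAC comparison called the largest share of all genes and still none of the members. The edgeR test called 0 of 79, against 5.10% of all genes, and DESeq2 and limma voom called 0. At an unadjusted p under 0.05 there was 1 member, Rpl37, against 19.3%. In Alox5ko, Rpl37 had 54.7, 53.7 and 58.2 CPM without TAC and 64.3, 51.3 and 65.6 CPM with it. Alox5ko_TAC 2 was the low library, and the average log2 fold change was 0.15 ± 0.0643 (edgeR adjusted p = 0.200). Without Alox5ko_TAC 2 it was 0.20 with an edgeR adjusted p of 0.0420, the one call of a member in any alternative.

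Rpl3l had an average TAC difference of -0.14 ± 0.0693 (edgeR adjusted p = 0.261), against an average genotype difference of 0.15 ± 0.0693 (edgeR adjusted p = 0.498). Rps13, a 40S protein, had an average TAC difference of -0.15 ± 0.0760 (edgeR adjusted p = 0.296). The median over members was 0.02 with 49 of 79 positive, and 73 were positive without Alox5ko_NS 3, with a median of 0.07. Without Alox5ko_NS 2 the TAC average turned the other way, with 30 positive and a median of -0.02. For the genotype average the test called 0 of 79 members, against 0.154% of all genes, with 0 in DESeq2 and limma voom and 1, Rpl3l, at an unadjusted p under 0.05, against 9.77%. There 70 of 79 were positive around a median of 0.06, and 42 without Alox5ko_NS 3, around 0.01. Rps14 differed by 0.17 ± 0.0863 (edgeR adjusted p = 0.544) and Rpl32 by 0.13 ± 0.0673 (edgeR adjusted p = 0.565).

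**Figure D5:**
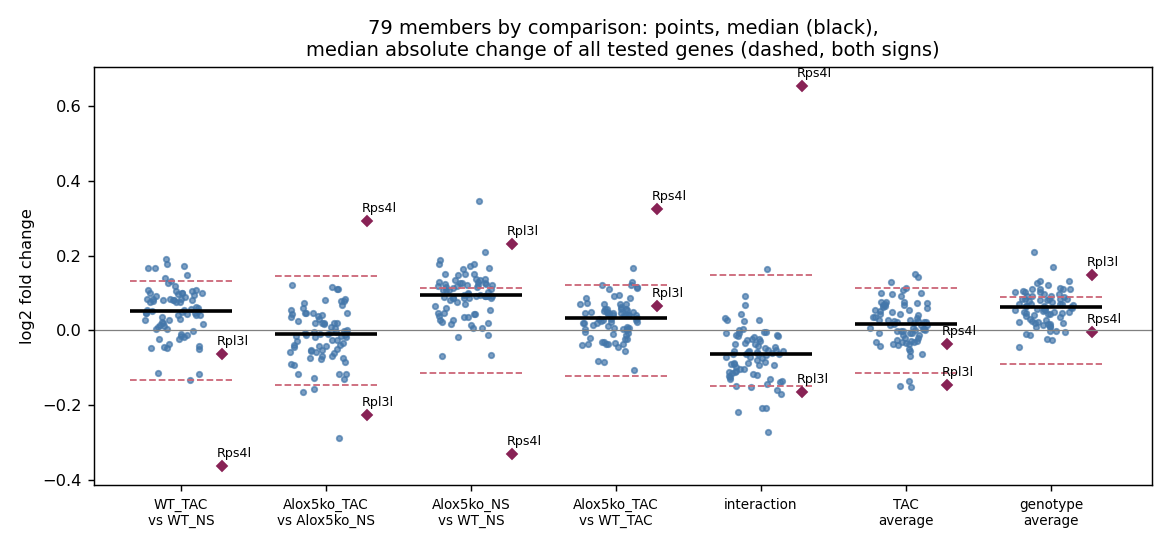
Log2 fold change of the 79 members in 7 comparisons; points are genes, diamonds Rpl3l and Rps4l, black lines the members' medians and dashed lines the median absolute change of all tested genes, drawn at both signs. Members cluster near 0 in each comparison, and Rps4l reaches 0.65 in the interaction.

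The intervals say how large a change could have gone unseen. In the comparisons of 2 groups the 95% interval of the log2 fold change reached a median of 0.21 to either side among members and 0.31 to 0.32 among all genes. The interval lay within ±0.5 for 77 of 79 members in WT TAC, in Alox5ko TAC and in genotype without TAC, for 78 in genotype under TAC, and for 79 in both averages. It did so for 72 in the interaction, where it reached 0.29 to either side. Rps4l was outside in each of the 5 comparisons with exceptions, joined in 3 of them by Rps27. All intervals lay within ±1 except that of Rps4l in the interaction, from 0.23 to 1.08.

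The P stalk proteins recruit the translation factors and stimulate their GTPase activity. Rplp0 had 106, 106 and 109 CPM in WT_NS, 101, 109 and 99.7 in WT_TAC, 103, 104 and 134 in Alox5ko_NS and 123, 104 and 109 in Alox5ko_TAC. Rplp1 ran from 68.6 to 86.4 CPM and Rplp2 from 185 to 238 CPM over the 12 libraries. For all 3 the highest or next highest value was in Alox5ko_NS 3. Rplp2 was 1 of the members separated upward in Alox5ko_NS from WT_NS, the nearest libraries both being at 204 CPM.

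In the Rps27, Rps4, Rpl39 and Rpl10 pairs the second copy had the lower mean level. Rps27l, a p53-regulated copy of Rps27, ran from 10.8 to 15.7 CPM and from 13.02 to 18.6 RPKM, against 17.8 to 33.7 CPM and 17.0 to 30.5 RPKM for Rps27. Rps4x, the X-linked 40S gene, ran from 43.6 to 57.0 RPKM and its pseudogene copy Rps4l from 7.69 to 12.4 RPKM. Rpl39, whose paralog Rpl39l is testis-enriched and had at most 1 count here, ran from 6.98 to 9.41 RPKM. Rpl10, whose autosomal copy Rpl10l had at most 1 count, ran from 19.6 to 24.7 RPKM. Rpl22 ran from 29.9 to 38.9 RPKM. The largest spread within groups, as SD of log2 CPM, was 0.25 for Rps27, 0.24 for Rpl6l, 0.20 for Rps4l and 0.19 for Rps15a, against a median of 0.13 over members.

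Ribosome biogenesis genes gave few calls as well. Of 58 ribosome biogenesis genes tested, 1 rose with TAC in Alox5ko (0.733% of all genes rose there) and 1 in the TAC average (2.90% rose and 2.19% fell), Rrp12 both times. Rrp12, a factor for maturation and export of ribosomal subunits, had 56.4, 66.7 and 53.0 CPM in the WT_NS libraries, while the WT_TAC libraries had 84.2, 91.8 and 69.5 CPM. It had 62.6, 58.4 and 58.5 CPM in the Alox5ko_NS libraries, while the Alox5ko_TAC libraries had 105, 80.9 and 88.2 CPM. All TAC libraries exceeded all NS libraries, with an average log2 fold change of 0.54 ± 0.0787 (edgeR adjusted p = 0.000833) that was called under every alternative. In Alox5ko alone it rose by 0.61 ± 0.111 (edgeR adjusted p = 0.0120). DESeq2 called Rrp12 in wild type too, and called Nolc1, a nucleolar factor, beside it in Alox5ko. The Alox5ko call of Rrp12 was lost in edgeR without Alox5ko_NS 2, without Alox5ko_NS 3 or without Alox5ko_TAC 1, with a highest adjusted p of 0.0637. Of the 12 marker lists other than the cardiomyocyte list, the mean sum was higher with TAC in both genotypes for 6. It was lower in both for 2 and opposite in the genotypes for 4. The skeletal muscle list shares Ckm with the cardiomyocyte list and also holds Acta1. The atrial myocyte list holds Nppa, and the smooth muscle and pericyte list holds Des. Which cells gave the rise of these 3 lists was not tested, so their names do not identify the source. The 8 activated fibroblast genes summed to 136 to 175 CPM without TAC and 172 to 434 CPM with it in wild type, and none of the 8 was at 0 throughout. In Alox5ko they summed to 75.5 to 99.3 CPM without TAC and 103 to 276 CPM with it. The 5 atrial myocyte genes went from 180 to 357 CPM without TAC against 637 to 1328 CPM with it in wild type, and from 170 to 289 against 284 to 1314 CPM in Alox5ko. Fibroblast, smooth muscle and pericyte, skeletal muscle and B cell lists were the others higher in both. Neutrophil markers had a lower mean with TAC in both, at 5.79 CPM without and 2.91 CPM with it in wild type and 4.76 and 2.44 CPM in Alox5ko, as did T cell markers, 1.40 and 1.27 CPM in wild type and 0.827 and 0.796 CPM in Alox5ko. Macrophage markers averaged 149 CPM without and 124 CPM with TAC in wild type, and 127 and 149 CPM in Alox5ko. Endothelial, adipocyte and erythroid lists also went opposite ways. Genes under 10 counts in every library made up 3 of 5 neutrophil, 5 of 6 T cell, 4 of 5 B cell and 2 of 5 adipocyte markers. The same held for 4 of 8 skeletal muscle, 1 of 5 atrial myocyte and 1 of 8 activated fibroblast markers. TAC and NS libraries overlapped in the neutrophil sum of wild type and in the T cell sum of both genotypes. Among the lists higher in both, they overlapped in the fibroblast and B cell sums of both genotypes. They also overlapped in the activated fibroblast sum of wild type and in the atrial myocyte and skeletal muscle sums of Alox5ko. The part of these shifts in the TAC differences was not tested.

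In the TAC average, 2 of 33 genes of mTOR signalling and translational control rose and 1 fell, where 2.90% of all genes rose and 2.19% fell. Mtor, the kinase itself, rose by 0.27 ± 0.0704 (edgeR adjusted p = 0.0324), and Eif2ak3, the endoplasmic reticulum stress kinase PERK, by 0.33 ± 0.0940 (edgeR adjusted p = 0.0495). Rheb, the GTPase that activates mTOR, fell by 0.21 ± 0.0557 on the log2 scale (edgeR adjusted p = 0.0330). Among 29 elongation factors and other TOP mRNAs, 1 rose (all genes 2.90%), the nuclear import factor Ipo5, by 0.20 ± 0.0519 (edgeR adjusted p = 0.0319). DESeq2 and limma voom called Mtor, Rheb and Ipo5, and neither called Eif2ak3, whose call was also lost in edgeR with relative log expression (RLE) scaling factors (adjusted p = 0.0501). All 4 calls were lost when some single libraries were left out. That of Mtor was lost without WT_NS 1, WT_NS 3, WT_TAC 2, WT_TAC 3, Alox5ko_NS 3 or Alox5ko_TAC 1, that of Ipo5 in all omissions but those of WT_TAC 3, Alox5ko_NS 2, Alox5ko_NS 3 and Alox5ko_TAC 2. That of Rheb was kept without WT_NS 1, WT_TAC 2, Alox5ko_NS 2 or Alox5ko_TAC 2, and that of Eif2ak3 without Alox5ko_TAC 1 alone. The highest adjusted p was 0.0945 for Mtor, 0.0894 for Ipo5, 0.111 for Rheb and 0.127 for Eif2ak3. In the genotype average DESeq2 called Sesn1 of the mTOR list, while edgeR (adjusted p = 0.129) and limma voom did not. There edgeR called 0.154% of all genes.

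In edgeR no call was made in any of the 7 comparisons among 18 genes of RNA polymerase I and rDNA transcription, 31 initiation factors, 10 ribosomal proteins outside the name rule (a list that holds Rps4l too) or the 4 muscle paralogs Rpl3l, Rpl3, Eef1a1 and Eef1a2. In the TAC average, 5, 4, 1 and 1 of these had an unadjusted p under 0.05, against 19.3% of all genes. Limma voom also called none of them, and DESeq2 called 1, Ubtf, a factor that opens rDNA for RNA polymerase I, in the TAC average. The median log2 fold change of the 58 biogenesis genes in the TAC average was 0.04 with 43 positive, against a median of 0.00 over all genes. Over omitted libraries 37 to 43 were positive. In Alox5ko 44 were positive, with a median of 0.07, and in wild type 32, with a median of 0.01. Without WT_TAC 2 the wild-type comparison gave 26 positive and a median of -0.01.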

How the data were processed

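The authors deposited raw counts and RPKM per gene symbol for 12 libraries; per the labels' protocols these were directional poly(A) libraries read as 150-base pairs. Per the submitters' processing notes, HISAT2, DESeq2, GRCh38 and mm10 were used; the counting program, strand setting and treatment of multi-mapping reads are not given in the sources used here. The deposited coordinates match GENCODE M21 (GRCm38) in start and end for 42930 of 47172 rows on the same chromosome (91.0%), and for 65 of 79 members.

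Counts were tested with edgeR 4.0.16 (R 4.3.3): TMM, filterByExpr, robust quasi-likelihood F test, 1 coefficient per group over 12 libraries, Benjamini-Hochberg over 15542 genes, adjusted p under 0.05. Alternatives were DESeq2 1.42.0, limma voom 3.58.1, other scaling factors, no filter, only the groups compared, a replicate block, pseudogene counts added, and each library left out. RPKM served for levels and the Rpl3l to Rpl3 ratio. Replicates differed beyond sampling noise (chi-square per gene 5.02 to 29.3).

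Named genes were the Rpl3, Rps27, Rps4, Rpl39, Rpl10, Rpl22 and stalk genes, called members or else the 3 smallest p per comparison, the 5 highest and 5 lowest levels, the 4 largest within-group SDs, and up to 4 called genes of each pathway list. The members and lists were chosen with earlier results of these data known. Leaving out Alox5ko_NS 3 from the correlations and using principal transcript lengths, also for the Rpl3l to Rpl3 ratio, were chosen after seeing the data.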

Additional observations from a re-analysis of the deposited data

How the results depend on the processing

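The count of called members was 0 in 112 of 113 alternatives over 7 comparisons; leaving out single libraries gave 0 to 1 in the TAC average, the 1 being Rpl37 without Alox5ko_TAC 2. With the replicate block all 7 counts were 0, and in the TAC average the edgeR calls of Eif2ak3 (adjusted p = 0.0514) and Mrpl45 (adjusted p = 0.0627) were lost. The Rpl3l to Rpl3 log2 ratio, TAC minus NS, was -0.28 with p = 0.03125 in an exact sign-flip test of same-numbered libraries (replicate block). That is the smallest p this sign-flip test can give. With single libraries left out the difference was -0.36 to -0.20. The numbers did not consistently pair the libraries. Correlations of same-numbered deviations over 12 pairs ran from -0.10 to 0.09, and 6 of 6 wild-type but 2 of 6 Alox5ko libraries correlated best with their own number. The mean share of counts in members was 1.02% in WT_NS, 1.03% in WT_TAC, 1.06% in Alox5ko_NS and 1.03% in Alox5ko_TAC with mitochondrial counts left out of the total. No member named for its small p in a comparison, and no pathway gene called in edgeR, changed sign in that comparison. Without the 2 annotated pseudogenes, an alternative chosen after seeing the data, the TAC average had a median of 0.02 and 48 of 77 positive. Groups of 3 libraries, and a single library in which most members were high, limit what can be said about small shared shifts.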

Other observations

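The 78 mitochondrial ribosomal protein genes, nuclear genes for the ribosome that translates mitochondrial mRNA, had mostly negative fold changes under TAC. Of them, 17 were positive in the TAC average, with a median log2 fold change of -0.08, and the range over omitted libraries was 12 to 28 positive, highest without Alox5ko_NS 3. In each of the single TAC comparisons 20 of 78 were positive, with a median of -0.09 in wild type and -0.06 in Alox5ko. Without Alox5ko_NS 3 the Alox5ko comparison gave 44 positive and a median of 0.03. In the TAC average 1 of 78 fell (all genes 2.19%), Mrpl45, a protein of the large mitochondrial subunit at its membrane side, with a log2 fold change of -0.24 ± 0.0687 (edgeR adjusted p = 0.0468). That call was kept without WT_TAC 2 or without Alox5ko_NS 2 and lost in the other 10 omissions, with upper-quartile factors and in limma voom. DESeq2 called Mrpl45 and Mrpl16. At an unadjusted p under 0.05 there were 21 of 78 (all genes 19.3%). In the genotype average 74 were positive, with a median of 0.08, and none was called in edgeR, with 5 of 78 at an unadjusted p under 0.05 (all genes 9.77%). Without Alox5ko_NS 3 there were 66 positive and a median of 0.04, and without Alox5ko_TAC 1 there were 72 and a median of 0.05.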
